A study of Mus musculus with 8 samples.

Results

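The nuclear receptors for retinoids and a pair of their corepressors were followed in cultured mouse spermatogonia treated with retinoic acid (RA), with nutrient restriction (NR) or with both (NRRA). The set is 8 of the 55421 genes in the count table, taken by gene symbol: the retinoic acid receptors Rara, Rarb and Rarg, the retinoid X receptors Rxra, Rxrb and Rxrg, and the corepressors Nrip1 and Ncor1. All 8 passed the filter on low counts and were among the 20477 genes tested.

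The cultures were derived from C57BL/6XDBA/2 F1 hybrid pups aged 6 days and were kept on irradiated embryonic fibroblast feeder cells, with GDNF and bFGF, which maintain undifferentiated spermatogonia. Veh cultures had complete medium without RA. RA cultures had the same medium with 100 nM RA. NR cultures had 10% complete medium and 90% Earle's Balanced Salt Solution (EBSS), and NRRA cultures had that mixture with 100 nM RA. In NR and NRRA the GDNF, bFGF and serum of the complete medium were thus diluted along with its nutrients. Each treatment lasted 48 h and was sequenced in 2 libraries, which the study's methods describe as independent biological replicates. The labels give the same strain for all groups and name no mutation or transgene. Veh is the control of all comparisons made against Veh, so these comparisons share its 2 libraries.

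Retinoic acid enters the nucleus and binds a RAR, which sits on DNA as a heterodimer with an RXR. Without ligand the heterodimer holds a corepressor complex built on NCOR1 with the deacetylase HDAC3, and with ligand it exchanges this complex for coactivators of the p160 family and the acetyltransferases EP300 and CREBBP. NRIP1 (RIP140) is a corepressor that binds receptors in the liganded state. In the testis, RA drives undifferentiated spermatogonia into differentiation and later into meiosis, and Rarb and the RA-degrading enzyme Cyp26a1 are textbook direct targets of the receptor pair.

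RAR and RXR heterodimers bind direct repeats of a hexamer, and the spacing between the copies separates the types of element. Windows from 250 bases before to 50 bases after RefSeq transcript starts (GRCm38.p6) were searched on both strands for repeats of 8 hexamers (AGGTCA or AGTTCA, or GGGTCA or GGTTCA, or AGGTGA or AGTTGA, or GGGTGA or GGTTGA) with 1, 2 or 5 bases between the copies. Over 32851 windows, 0.609% held a repeat with spacing 1, 0.472% with spacing 2 and 0.323% with spacing 5. The 8 genes had 17 windows, and 2 of them held a match, in Rarb and in Rxrg. Of the 10 RA target genes listed for comparison, Cyp26a1 and Stra8 held a match. The 4 sequences shown are all the matches found in the 8 genes and the 10 target genes, with both copies of the hexamer in capitals and 30 bases in each. Distances are to the RefSeq transcript start of the window that held the match. For Rarb, Stra8 and Rxrg the match lies inside the annotated span of the gene, not before its outer end.
Rarb, spacing 5, 53 to 37 bases before the start, chr14:16575506-16575535, gene on the minus strand: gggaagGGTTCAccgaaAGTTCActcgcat
Cyp26a1, spacing 5, 32 to 16 bases before the start, chr19:37697769-37697798, antisense to the gene: caaattAGTTCAcccaaAGTTCAtctttaa
Stra8, spacing 2, 202 to 189 bases before the start, chr6:34920738-34920767, plus strand: cctggatgGGGTGAaaAGGTCAtcttgctc
Rxrg, spacing 1, 95 to 83 bases before the start of its second window, chr1:167618162-167618191, plus strand: gggatcggGGTTGAaAGGTCAgctgaaagc
A match describes the letters in the window and shows no binding. For the other windows of the 8 genes, Nrip1 included, these letters were not found with these spacings.

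Library totals ran from 19261333 to 30023585 counts on genes, and the common biological coefficient of variation was 3.35%. All 6 germ cell markers (Ddx4, Dazl, Mael, Tex14, Dnd1 and Sycp3) had more than 3 counts in every library, and their summed level was 741.6 to 782.1 CPM (library-size scaled counts, with TMM factors) in Veh and 913.3 to 940.9 in NR, against 846.9 to 916.7 in RA and 992.8 to 1024 in NRRA. Against Veh, 5 of the 6 were higher in NR. In RA 3 were higher and 2 (Mael and Dnd1) lower, and in NRRA 4 were higher and the same 2 lower. All 12 fibroblast markers were detected in every library too. Their summed level was 8696 to 9415 CPM in RA and 11250 to 11440 in Veh, against 23560 to 24790 in NR and 20990 to 21590 in NRRA, and the sum was higher in all 4 libraries with NR than in the 4 without it. By gene, 10 of the 12 were higher and 1 (S100a4) lower in NR against Veh, and 8 were higher and 4 (Lum, S100a4, Fbn1 and Col5a1) lower in NRRA against Veh. The summed level of 8 undifferentiated markers was 863 to 928.5 CPM in Veh and 760.8 to 777.8 in NR, against 326.4 to 332.6 in RA and 154.9 to 155.8 in NRRA. That of 6 differentiating markers was 239 to 251.4 CPM in Veh and 248.6 to 251.8 in NR, against 1106 to 1109 in RA and 1570 to 1616 in NRRA. In RA against Veh, 3 of these 6 were higher (Stra8, Kit and Sohlh2). Stra8 and Kit, which are also on the RA target list, carried most of that difference, and Sohlh1 went from 24.4 to 23.8 CPM and Dnmt3b from 75.2 to 72.8. The near-equal sums of Veh and NR held opposite shifts, with 3 of the 6 higher and 2 lower in NR. Stra8, Kit and Sohlh1 went from 1.33, 6.32 and 24.4 CPM in Veh to 14.4, 23.7 and 51.3 in NR. Sohlh2 and Prss50 went from 135.9 and 1.93 CPM to 89.4 and 0.910. Sertoli cell markers, of which 4 of 6 were tested, summed to 38.1 to 40.5 CPM in Veh and 43.5 to 46.6 in NR, against 25.3 to 26.0 in RA and 13.4 to 13.7 in NRRA. Sox9 held most of this sum in Veh (31.9 CPM) and was lower in RA (14.7), while Wt1 was higher in RA (4.56 to 8.96 CPM). Leydig cell markers, of which 1 of 5 was tested, summed to 0.683 to 1.61 CPM. Macrophage markers summed to 253.1 to 254.9 CPM in Veh and 286.4 to 288.1 in NR, against 202.9 to 223.2 in RA and 263.4 to 277.4 in NRRA. In bulk RNA, fewer cells of a type and less RNA per cell cannot be told apart. The part of these shifts in the results on the 8 genes was not tested.

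Rarb and Nrip1 rose with RA in both media, Rxra, Rxrg and Rarg fell with RA in both media, and Rara, Rxrb and Ncor1 stayed within about 0.3 log2 units of Veh in every condition. Against Veh, RA changed 6 of the 8 genes at an adjusted p under 0.05 (3 higher and 3 lower), beside 43.2% of all tested genes (19.8% higher and 23.4% lower). NR changed 4 (3 higher and 1 lower), beside 43.9% of all tested genes (21.7% and 22.2%). NRRA changed 7 (5 higher and 2 lower), beside 58.8% (30.1% and 28.7%). With only 8 genes, these counts are read as a description beside those shares. With a change of at least 2-fold as well, the counts were 3, 0 and 3, beside 7.47%, 8.28% and 15.9% of all tested genes. Across all 4 conditions, 7 of the 8 differed, with Rxrb the exception (adjusted p = 0.183), beside 70.2% of all tested genes. All tests were edgeR quasi-likelihood F tests with Benjamini-Hochberg adjustment over the 20477 genes.

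**Figure D1:**
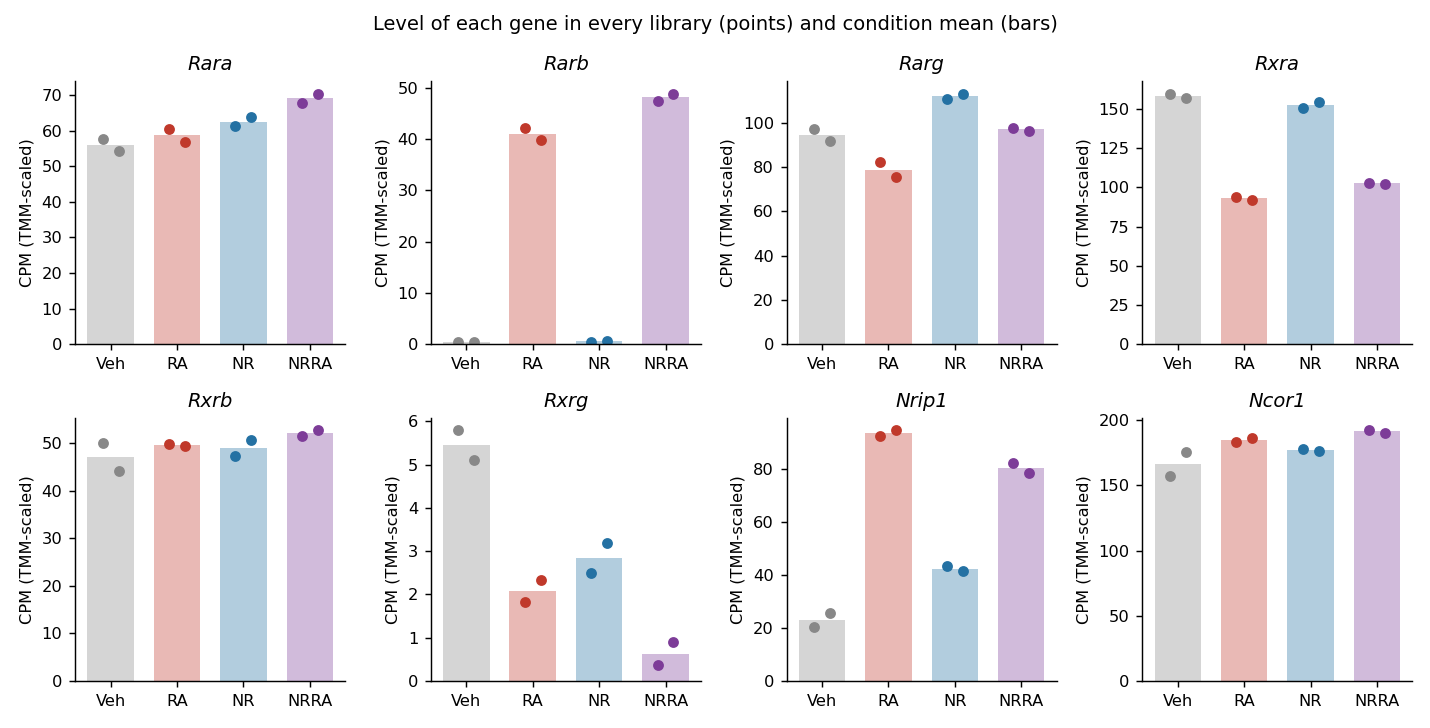
Level of the 8 genes (CPM, linear axes from 0) in the 8 libraries, with points for libraries and bars for the mean of 2 libraries in Veh, RA, NR and NRRA. Rarb is near 0 in the 4 libraries without RA and between 39.8 and 48.8 CPM in the 4 with RA, Rxra is lower in those 4, and Rxrb shows no such split.

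Rarb (ENSMUSG00000017491, chromosome 14, 16430839 to 16819156 in mm10, minus strand), the receptor gene best known as a direct target of RA, had few reads without RA. Its counts were 9 and 8 in Veh and 10 and 16 in NR, against 827 and 1147 in RA and 1328 and 1521 in NRRA. As levels these were 0.446 and 0.417 CPM in Veh, 0.482 and 0.608 CPM in NR, 42.2 and 39.8 CPM in RA and 47.5 and 48.8 CPM in NRRA. All 4 libraries with RA lay far above all 4 without it. The RNA came from spermatogonia and feeder fibroblasts together, and which cells carried this rise was not tested. The log2 fold change was 6.55 ± 0.15 (SE) for RA against Veh, a 93.5-fold difference with a 95% interval from 75.1 to 116.5 (edgeR, adjusted p = 1.23e-22). For NRRA against NR it was 6.43 ± 0.13 (adjusted p = 2.72e-24). By log2 fold change Rarb was the 13th highest of the 20477 genes in RA against Veh and the 11th highest in NRRA against NR. NR against Veh gave 0.35 with an interval from -0.50 to 1.20 (adjusted p = 0.555), a wide range at 8 to 16 counts a library.

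With RA present, Rarb was slightly higher in NRRA than in RA, by 0.24 ± 0.06 log2 units (adjusted p = 0.00281). This small difference lost its call under DESeq2 (adjusted p = 0.119) and when RA replicate 2 or NRRA replicate 2 was left out (0.0764 and 0.0531). By mean level the order for Rarb was Veh, NR, RA and NRRA. The Veh and NR libraries did not overlap, but at these low counts their difference did not pass the test. The step from RA to NRRA lost its call under the alternatives just given. In the annotation, 34.06% of the exon bases of Rarb overlap exons of Top2b on the opposite strand. Top2b had 1009 and 1261 counts in the same Veh libraries in which Rarb had 9 and 8, and 2243 and 3688 counts in RA. The strand setting of the counting is not given in the sources used here.

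Rarg (ENSMUSG00000001288, chromosome 15, 102234938 to 102257517 in mm10, minus strand), the receptor most tied to spermatogonial differentiation, moved in opposite directions with the treatments. Its levels were 97.1 and 91.6 CPM in Veh, 110.6 and 113.1 in NR, 82.0 and 75.4 in RA, and 97.7 and 96.2 in NRRA. The RA libraries were the lowest and the NR libraries the highest, and Veh and NRRA overlapped between them. RA lowered Rarg by a log2 fold change of -0.27 ± 0.05 in complete medium (adjusted p = 0.00018) and of -0.21 ± 0.05 under NR (0.00125). NR raised it by 0.25 ± 0.05 without RA (0.000287) and by 0.30 ± 0.05 with RA (1.99e-05). The NRRA and Veh levels differed by 0.04 (interval -0.07 to 0.14, adjusted p = 0.539). Scaled by total counts only, or with a trend for GC content and length, that last difference passed the test as higher (0.15 and 0.14). Of the 12 fibroblast markers, 10 were higher and 1 lower in NR against Veh, and 10 were higher and 2 lower in NRRA against RA. Their part in the NR effect on Rarg was not tested.

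Rara (ENSMUSG00000037992, chromosome 11, 98927818 to 98974942 in mm10, plus strand), the RAR gene found in most cell types, changed little. Its levels were 57.6 and 54.4 CPM in Veh, 61.2 and 63.9 in NR, 60.6 and 56.8 in RA, and 67.7 and 70.4 in NRRA. The NRRA libraries were the highest, the NR libraries lay between them and the rest, and only Veh and RA overlapped. NRRA was above Veh by 0.30 ± 0.06 log2 units (adjusted p = 4.14e-05) and above RA by 0.24 ± 0.06 (0.000896). RA against Veh gave 0.07 (interval -0.06 to 0.19, adjusted p = 0.398), and it passed the test with total-count scaling (0.17) or with the GC and length trend (0.19). NR against Veh (0.16, adjusted p = 0.0252) lost its call without NR replicate 2 (0.146), without Veh replicate 2 (0.0703) and under DESeq2 (0.119). NRRA against NR (0.14, adjusted p = 0.0389) lost its call when any library of NR or NRRA was left out (0.0685 to 0.344), under DESeq2 (0.229) and under 3 other settings.

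Per kilobase of transcript (FPKM, here CPM divided by transcript length), the 3 RAR genes can be set side by side. The summed RAR level was 48.6 ± 2.0 FPKM in Veh (mean ± SD, n = 2) and 56.6 in NR, and with RA 57.2 ± 2.9 in RA and 68.7 in NRRA. Rarb took 0.285% of this sum in Veh and 0.309% in NR, and 23.1% in RA and 22.5% in NRRA. The share of Rarg was 65.7% in Veh and 67.0% in NR, and 46.6% in RA and 47.8% in NRRA. The share of Rara was 34.0% in Veh and 32.7% in NR, and 30.3% in RA and 29.7% in NRRA. Rarg thus led the RAR genes in all 8 libraries, and Rarb was the lowest in all 8. With union exon lengths the share of Rarb in RA was 19.6%, and without a length correction it was 23.0%. These shares are given as a description with no test. They are of bulk RNA from spermatogonia and feeder fibroblasts together, and the part of each cell type in them was not tested.

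**Figure D2:**
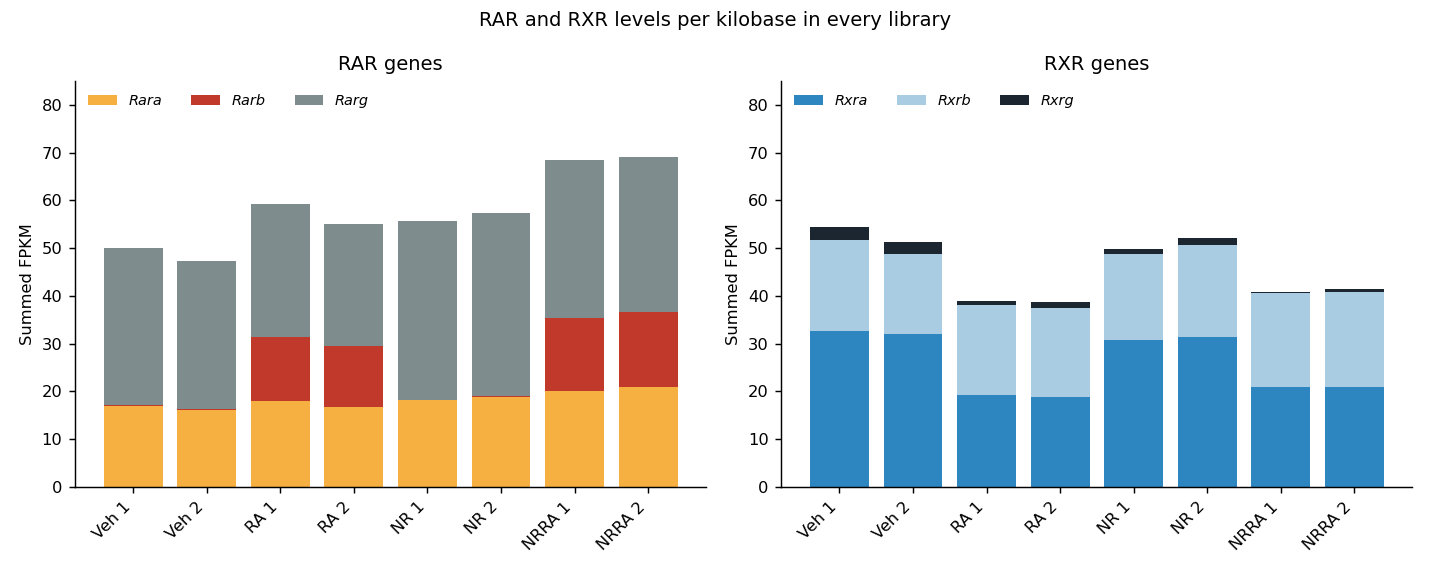
Stacked bars of FPKM (linear axis from 0) for the 3 RAR genes and the 3 RXR genes in each of the 8 libraries. A Rarb segment is visible in the 4 libraries with RA and not in the 4 without, and the Rxra segment is shorter in those with RA.

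Rxra (ENSMUSG00000015846, chromosome 2, 27676440 to 27762957 in mm10, plus strand), the main partner of the RARs in many tissues, was lower in every library with RA. Its levels were 159.8 and 157.1 CPM in Veh, 150.8 and 154.3 in NR, 94.0 and 91.8 in RA, and 103.0 and 102.3 in NRRA. The 4 libraries with RA did not overlap with the 4 without. The log2 fold change of RA against Veh was -0.77 ± 0.05 (adjusted p = 9.14e-14), and that of NRRA against NR was -0.57 ± 0.04 (1.83e-11). NR against Veh did not pass the test (-0.05, interval -0.15 to 0.04, adjusted p = 0.348), though both NR libraries lay below both Veh libraries. NRRA was above RA by 0.14 ± 0.05 (0.0126), a call lost under DESeq2 (0.0831) and without RA replicate 2 (0.113), NRRA replicate 1 (0.0874) or NRRA replicate 2 (0.0689).

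Rxrg (ENSMUSG00000015843, chromosome 1, 167598384 to 167639623 in mm10, plus strand), the RXR gene usually found in few tissues, was the lowest expressed of the RXR genes and fell with either treatment. Its counts were 117 and 98 in Veh, 52 and 84 in NR, 36 and 67 in RA, and 10 and 28 in NRRA. The levels were 5.80 and 5.11 CPM in Veh, 2.51 and 3.19 in NR, 1.83 and 2.32 in RA, and 0.357 and 0.899 in NRRA. Veh was highest and NRRA lowest, with no overlap, and RA and NR lay between them. The log2 fold change against Veh was -1.36 ± 0.21 for RA (adjusted p = 6.73e-06), -0.92 ± 0.20 for NR (0.000457) and -3.08 ± 0.26 for NRRA (3.84e-11). NR against RA did not pass the test (0.44, interval -0.04 to 0.92, adjusted p = 0.122), though both NR libraries lay above both RA libraries.

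NRRA was below RA by -1.71 ± 0.30 (adjusted p = 3.55e-05) and below NR by -2.16 ± 0.29 (4.29e-07). The pair of NRRA libraries differed by more than 2-fold in this gene. Without NRRA replicate 2 the change of NRRA against Veh was -3.91, and without NRRA replicate 1 it was -2.59, with an adjusted p under the threshold both times. For NRRA against RA these values were -2.55 and -1.23, and for NRRA against NR they were -2.99 and -1.67. Among all tested genes, Rxrg was the 138th lowest by log2 fold change in NRRA against Veh. Of the 8 undifferentiated markers, 8 were lower in RA and 7 in NRRA against Veh, and in NR 4 were lower and 2 higher. Their part in the fall of Rxrg was not tested.

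Rxrb (ENSMUSG00000039656, chromosome 17, 34031812 to 34038399 in mm10, plus strand), the RXR gene expressed in nearly every tissue, had the smallest range of the 8 over the 3 comparisons against Veh, from 0.06 to 0.15. Its levels were 50.0 and 44.1 CPM in Veh, 47.2 and 50.5 in NR, 49.7 and 49.5 in RA, and 51.6 and 52.7 in NRRA. The ranges of Veh, RA and NR overlapped, and only NRRA lay above the rest. NRRA against Veh gave 0.15 ± 0.06 (adjusted p = 0.0444), and this call was lost under 11 of 19 alternatives, among them DESeq2 (0.295), a fit of the pair of conditions alone (0.104) and the omission of Veh replicate 2 (0.453). The RXR sum was 52.8 FPKM in Veh and 51.1 in NR, and 38.8 in RA and 41.1 in NRRA. Rxra made up 61.2% of it in Veh and 60.9% in NR, against 48.8% with RA alone and 51.0% in NRRA. Rxrb made up 33.9% in Veh and 36.4% in NR, against 48.6% with RA alone and 48.3% in NRRA. Rxra and Rxrb were thus close to equal per kilobase with RA. With union exon lengths the RA shares were 56.0% and 41.1%, so the near equality depends on the transcript length taken. The RXR shares too are of bulk RNA that includes the feeder cells.

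**Figure D3:**
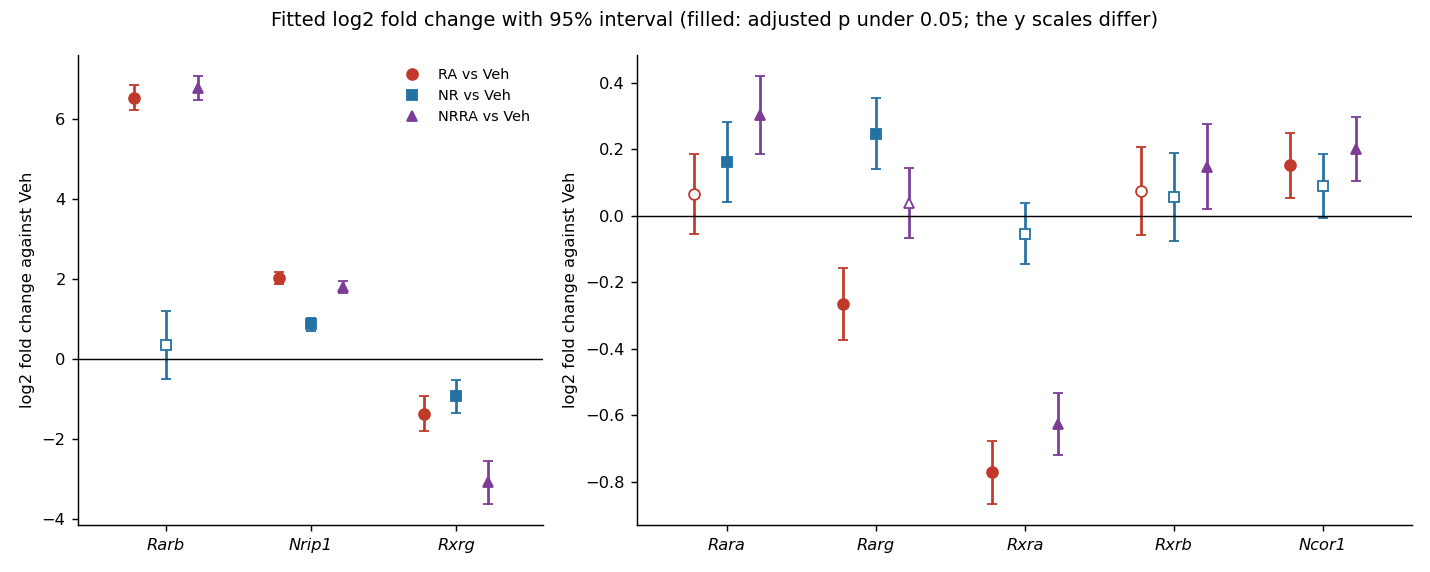
Fitted log2 fold change of each gene against Veh in RA (circles), NR (squares) and NRRA (triangles), with 95% intervals and filled symbols where the adjusted p was under 0.05. The left panel holds Rarb, Nrip1 and Rxrg, from -3.08 to 6.78, and the right panel the other 5 genes on a narrower scale, where Rxra in RA (-0.77) and NRRA (-0.63) stand apart.

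Nrip1 (ENSMUSG00000048490, chromosome 16, 76287400 to 76373827 in mm10, minus strand), a corepressor recruited by liganded receptors, rose with RA and with NR, and the rise with both was smaller than the sum of the single rises on the log2 scale. Its levels were 20.3 and 25.7 CPM in Veh, 43.3 and 41.5 in NR, 92.5 and 94.7 in RA, and 82.5 and 78.5 in NRRA. The 4 conditions did not overlap, and their order was Veh, NR, NRRA and RA. Against Veh, the log2 fold change was 2.03 ± 0.07 for RA (adjusted p = 1.34e-18), 0.88 ± 0.08 for NR (2.78e-10) and 1.81 ± 0.07 for NRRA (3.34e-18). RA raised Nrip1 by 0.93 ± 0.06 under NR (adjusted p = 1.95e-12). The effect of RA under NR minus that in complete medium was -1.10 ± 0.10 (edgeR interaction, adjusted p = 3.36e-09), and it was called under all 18 alternatives, from -0.98 to -1.31. NRRA was below RA by -0.22 ± 0.06 (0.00403), a call lost without RA replicate 2 (0.0546) or NRRA replicate 2 (0.087). The summed level of the fibroblast markers was higher in NR and NRRA, though 4 of the 12 were lower in NRRA against Veh, and their part in these values was not tested.

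Ncor1 (ENSMUSG00000018501, chromosome 11, 62316426 to 62458541 in mm10, minus strand), a scaffold of the corepressor complex of unliganded RARs, moved within a narrow band. Its levels were 157.5 and 175.6 CPM in Veh, 177.7 and 176.4 in NR, 183.5 and 186.2 in RA, and 192.3 and 190.5 in NRRA. The Veh libraries differed from each other by about as much as the Veh and RA means did. RA against Veh was 0.15 ± 0.05 (adjusted p = 0.0106) and NRRA against Veh 0.20 ± 0.05 (0.000526). With the GC and length trend these fell to 0.07 (0.0911) and 0.05 (0.217), and the first was also lost without RA replicate 2 (0.0823) or Veh replicate 1 (0.0597). NRRA against NR was 0.11 with an adjusted p of 0.0498, and this call was lost under 12 of 19 alternatives, including the omission of any library of NR, NRRA or RA (0.0594 to 0.27).

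Of the 8 genes, 2 passed the test of the interaction (1 positive and 1 negative), beside 13.1% of all tested genes (6.49% and 6.59%), and 1 of them was at least 2-fold, beside 2.26%. Nrip1 is given above. Rxra fell less with RA under NR than in complete medium, with a difference of 0.20 ± 0.06 (adjusted p = 0.0375), which lost its call under 14 of 18 alternatives, among them DESeq2 (0.11), 3 other scalings (0.0549 to 0.0596) and the omission of 7 of the 8 libraries. For Rarb the difference was -0.11 (interval -0.96 to 0.73) and for Rxrg -0.79 (interval -1.56 to -0.03, adjusted p = 0.178). The Rxrg value was -1.63 without NRRA replicate 2, where it passed the test (adjusted p = 0.0323), and -0.31 without NRRA replicate 1 (0.703). For Rara, Rarg, Rxrb and Ncor1 it lay between -0.04 and 0.08. Between the treatments, NRRA changed 6 of the 8 against RA (4 higher and 2 lower), beside 40.3% of all tested genes (20.9% and 19.5%), and 7 of the 8 against NR (4 higher and 3 lower), beside 43.4% (21.2% and 22.2%). NR against RA gave 4 of 8 (2 higher and 2 lower), beside 48.3% (24.5% and 23.8%). With at least 2-fold as well, the counts were 1 against RA, 2 against NR and 2 for NR against RA, beside 8.26%, 8.68% and 12.4% of all tested genes.

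**Figure D4:**
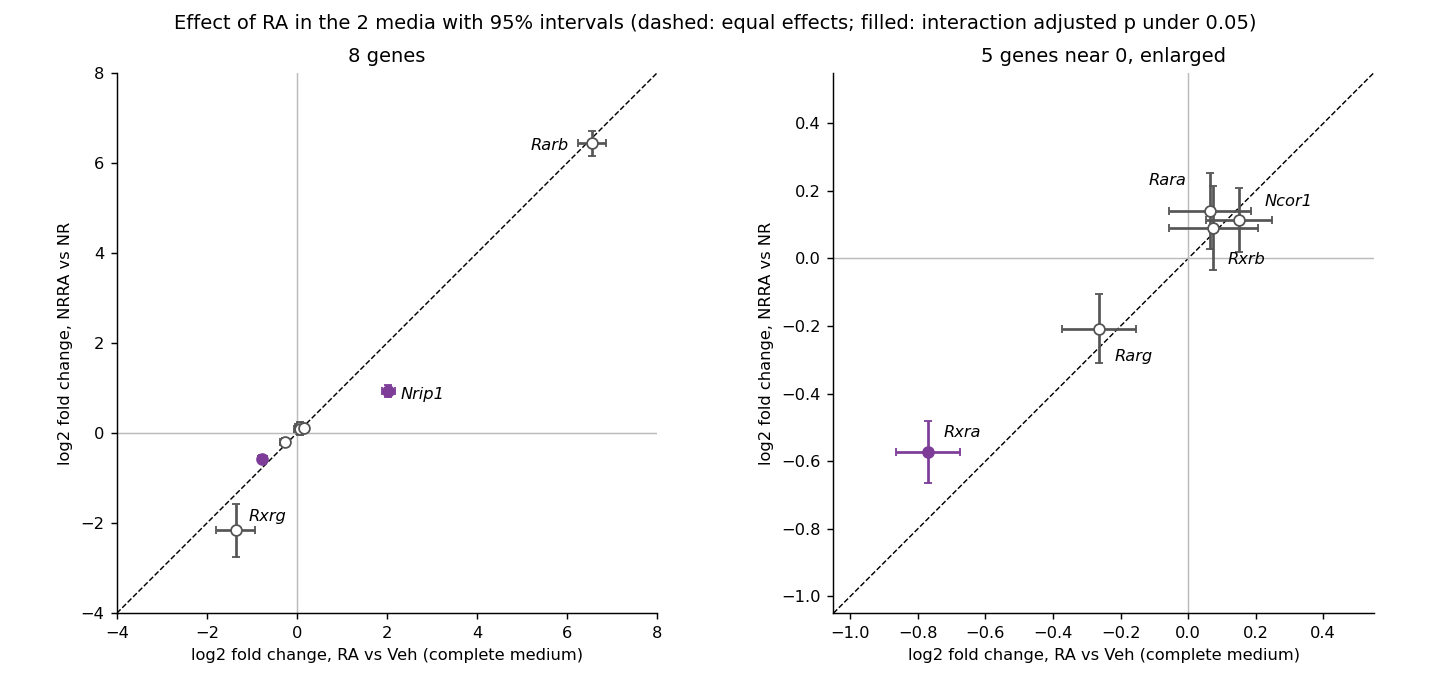
Log2 fold change with RA in complete medium (RA against Veh, x axis) and under NR (NRRA against NR, y axis) with 95% intervals, for the 8 genes (left) and enlarged for the 5 nearest 0 (right). The dashed line marks equal effects, filled points passed the interaction test, and Nrip1 (2.03 and 0.93) lies farthest from the line.

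The other corepressors of the receptor pair were counted from a list of 12. RA against Veh changed 5 of them, beside 43.2% of all tested genes (2 higher and 3 lower, median log2 fold change 0.01 against -0.02 over all genes), and NRRA against Veh changed 11, beside 58.8% (7 higher and 4 lower, median 0.12 against 0.03). With total-count scaling the counts became 6 higher and 2 lower for RA and 7 and 1 for NRRA, without Veh replicate 2 the RA count became 4 higher and 3 lower, and without either NRRA replicate 4 were higher in NRRA. Trim24, a corepressor of liganded RARA, rose with RA (0.45 ± 0.06, adjusted p = 1.72e-07) and with NRRA (0.37, 1.29e-06). Lcor, which like NRIP1 binds liganded receptors, was 0.70 above Veh in NRRA (1.11e-12), and its rise in RA (0.34) turned to about -0.04 with the GC and length trend. Hdac3, the deacetylase of the NCOR1 complex, stood at -0.05, -0.17 and -0.12 against Veh in RA, NR and NRRA, and only the NR value passed the test (adjusted p = 0.0125), until either NR library was left out.

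Among 12 coactivators, 4 were higher and 4 lower in RA against Veh, beside 19.8% and 23.4% of all tested genes (median 0.07 against -0.02 over all genes). In NR 6 were higher and 3 lower, beside 21.7% and 22.2% (median 0.14 against 0.01), and in NRRA 7 were higher and 3 lower, beside 30.1% and 28.7% (median 0.19 against 0.03). Of the p160 coactivators, Ncoa1 and Ncoa2 rose in all 3, with Ncoa1 at 0.70 ± 0.10 in RA (adjusted p = 1.22e-06) and 0.98 ± 0.09 in NRRA (5.08e-10). Its rise in NR (0.29, adjusted p = 0.0215) was lost under 5 of 19 alternatives. Ncoa3, the other p160 gene, rose in RA and NRRA (0.16 each) and was lower in NR (-0.11, adjusted p = 0.0454), a call lost under 14 of 19 alternatives. The acetyltransferase gene Kat2a and the methyltransferase gene Prmt1 fell in all 3, by -0.66 ± 0.05 and -0.58 ± 0.04 in NRRA (1.73e-12 and 5.21e-12). Kat2b fell with RA (-0.60, adjusted p = 3.76e-06) and rose with NR (0.49, 1.28e-05). For the acetyltransferase gene Ep300 the values were 0.03, 0.05 and -0.09 in RA, NR and NRRA (adjusted p = 0.647, 0.367 and 0.0705). With total-count scaling the coactivators called in RA against Veh were 8 higher and 4 lower, and without Veh replicate 2 they were 7 and 4.

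RXR also pairs with other nuclear receptors, and 10 of these genes were counted. RA against Veh gave 3 higher and 4 lower, beside 43.2% of all tested genes called. NR against Veh gave 4 higher and 2 lower, beside 43.9%, and NRRA against Veh 4 higher and 3 lower, beside 58.8%. Vdr, the vitamin D receptor, rose from 9.46 ± 0.48 CPM in Veh to 42.4 ± 2.8 in NR and 40.5 ± 2.4 in NRRA, with 12.2 ± 0.7 in RA, and its log2 fold change in NR was 2.17 ± 0.09 (adjusted p = 8.84e-18). Thra, a thyroid hormone receptor, fell with RA (-0.48 ± 0.07, adjusted p = 1.29e-06) and rose with NR (0.67 ± 0.06, 4.59e-10). Nr4a1 was lower with RA in both media (-0.96 and -0.82), and Ppard was lower in RA, NR and NRRA (-0.37, -0.76 and -0.94). The small rise of Vdr in RA (0.35, adjusted p = 0.00868) lost its call without RA replicate 1. In NR against Veh 10 of the 12 fibroblast markers were higher and 1 lower, and their part in the NR values of Vdr and Thra was not tested.

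**Figure D5:**
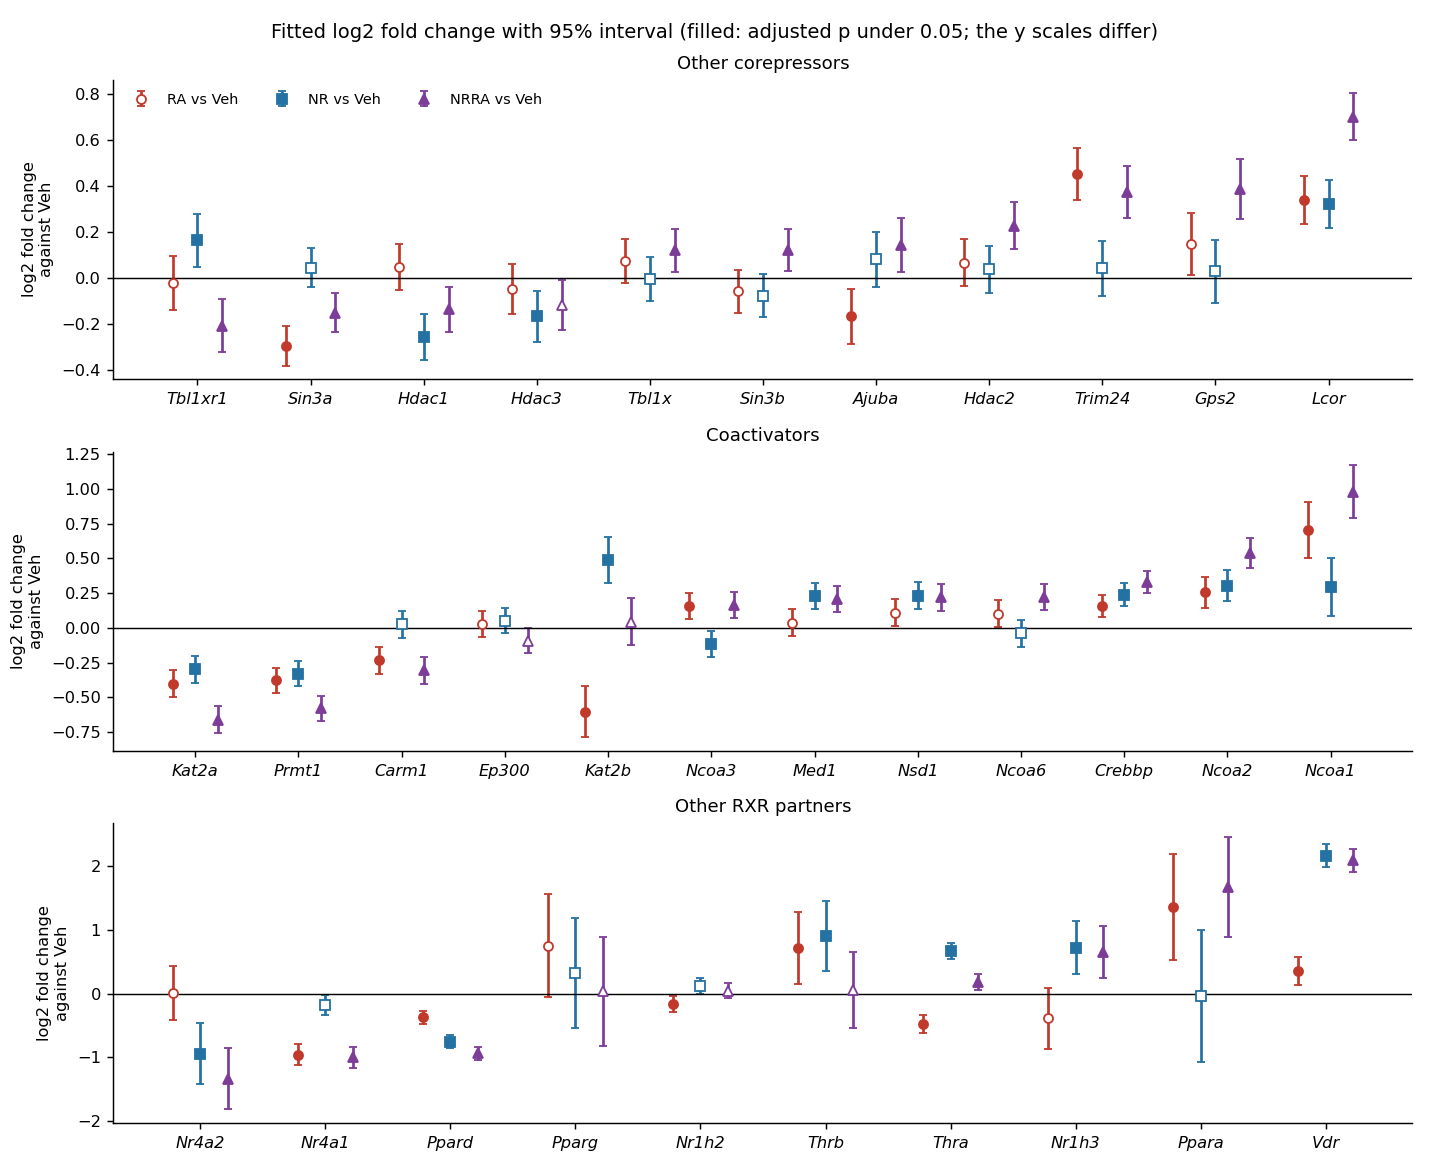
Fitted log2 fold change against Veh with 95% intervals for other corepressors, coactivators and other RXR partners, ordered within each panel by the NRRA value (circles RA, squares NR, triangles NRRA, filled where the adjusted p was under 0.05). Lcor (0.70 in NRRA), Ncoa1 (0.98 in NRRA) and Vdr (2.17 in NR) reach the highest values of their panels.

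The genes that supply and clear RA, and the genes known to respond to it, were read from the same fit. All 10 RA target genes were higher in RA against Veh, in NRRA against Veh and in NRRA against NR. The shares of all tested genes called higher were 19.8%, 30.1% and 21.2%. Medians of the 10 were 2.93, 3.62 and 3.48, against -0.02, 0.03 and 0.01 over all genes. The count in RA against Veh was 9 under the least favourable alternative. The list was chosen with earlier results of these data known, so these counts are a description and no test of the list. Of these 10 genes, 4 are also on the list of supply and clearance, and 2 are among the differentiating markers. Cyp26a1, which degrades RA, went from 0.456 CPM in Veh to 118.2 in RA and from 0.291 in NR to 87.8 in NRRA. Stra8, a gene needed for meiotic entry, went from 1.33 CPM in Veh to 642.3 in RA, and from 14.4 in NR to 937.4 in NRRA. The interaction passed the test for 8 of the 10, with 4 positive and 4 negative, beside 13.1% of all tested genes (6.49% and 6.59%). Stra8 and Kit, which NR alone raised (3.44 and 1.91), had a negative interaction (-2.90 and -1.12, adjusted p = 2.51e-14 and 2.53e-09), as had Rec8 and Hoxb1 (-0.54 and -0.72). Tgm2, which NR alone also raised (0.70), had a positive interaction (1.81, adjusted p = 5.44e-14), as had Cyp26b1, Crabp2 and Dhrs3 (1.55, 1.46 and 0.34). The interaction calls of Rec8, Hoxb1 and Dhrs3 were lost under 6, 7 and 8 of 18 alternatives.

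Of 16 genes of retinoid supply and clearance, 7 rose and 3 fell in RA against Veh, beside 43.2% of all tested genes called, and 11 rose and 3 fell in NRRA against Veh, beside 58.8%. Cyp26b1 rose with RA by 2.48 ± 0.05 in complete medium and by 4.03 ± 0.05 under NR, starting from 122.2 and 35.9 CPM. The retinaldehyde reductase gene Dhrs3 (3.24 ± 0.07) and the retinol transporter gene Stra6 (4.73 ± 0.15) rose with RA in complete medium. Aldh1a3, which makes RA, fell by -1.76 ± 0.18 in RA and -2.89 ± 0.20 in NRRA against Veh. Crabp1, a cytoplasmic RA-binding protein gene, fell from 942.4 CPM in Veh to 706.1 with RA alone, 348.2 with NR alone and 276.6 in NRRA.

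For each of the 7 genes that differed among the conditions, the most similar patterns were found by Pearson correlation of log2 CPM over the 8 libraries, among 12623 genes with a mean of at least 5 CPM (12624 for Rxrg, which is below that level). The values describe 8 libraries that share 4 conditions, and between 49 and 318 genes had r above 0.95 for a given gene. Rarb was followed most closely by Morc4, Slc25a51 and Epb41 (r = 0.995 each), and Nrip1 by Rttn, Neb and Zdhhc21 (0.991 to 0.993). Rxra was matched by Bid, Mcam and Kif26a (0.994 to 0.997) and Rarg by Agrn, Hexa and Gm15821 (0.993 to 0.997). For Rxrg these were Mrps27, Msx2 and Sf3a3 (0.977 to 0.983), for Rara Dstyk, Ctdspl and Podxl2 (0.981 to 0.989), and for Ncor1 Capn7, Zmym2 and Zfp955b (0.983 to 0.985). The scale of change was not the same, since Morc4 went from 10.2 CPM in Veh to 28.0 in RA where Rarb changed 93.5-fold.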

How the data were processed

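The authors sequenced RNA of 8 libraries, aligned reads to mm10 with STAR 2.6.1c and counted them per gene with featureCounts 1.6.4, per the labels. The deposited values are raw counts. Multimapping, strand and annotation settings are not given in the sources used here. Every count column matched a sample (columns left over: 0).

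Counts were scaled by TMM and tested with edgeR 4.0.16 (R 4.3.3) by robust quasi-likelihood F tests over all 8 libraries, with 1 coefficient per condition, filterByExpr and Benjamini-Hochberg adjustment over 20477 genes. DESeq2 1.42.0 was an alternative. FPKM is CPM per kilobase of the longest RefSeq-paired GENCODE M21 transcript. Symbols come from the table, and 55240 of 55421 identifiers were in GENCODE M21. The code was tested on simulated counts. Alternatives changed the test, scaling, filter, samples, replicate block, a GC and length trend, or left out 1 library; those for list genes were added after seeing the data.

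The 8 genes and the gene lists were chosen with earlier results of these data known. Text names all 8 genes, any gene of the fixed lists, and for each gene that differed among conditions the 3 genes of most similar pattern. Depth ran from 19261333 to 30023585 counts, and genes with few reads, such as Rarb without RA, have wide intervals. P-values rest on a spread estimated per gene from library differences within conditions and shared by all 4 conditions. Each gene alone leaves 4 residual degrees of freedom, so the fit draws its spread toward a trend over all tested genes. Small p-values thus rest in part on other genes. The Veh pair was the noisiest. Its chi-square per gene, for the split of counts between the 2 libraries, was 3.93, against 2.12 in RA, 1.58 in NR and 1.73 in NRRA. For comparisons against Veh the shared spread may therefore be too small. Amino acid sequences were not used here. The values of 2 genes on the lists are not reported here, though the list counts include them.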

Additional observations from a re-analysis of the deposited data

Results flagged for a closer look

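For 2 of the 8 genes, RA had unequal effects in complete medium and under NR, by the edgeR interaction test over all libraries. For Nrip1 the effect of RA under NR minus that in complete medium was -1.10 on the log2 scale (adjusted p = 3.36e-09). In this gene the NRRA libraries lay below the RA libraries, and the NR libraries lay above the Veh libraries. For Rxra the difference was 0.20 (adjusted p = 0.0375), and this call was lost under 14 of 18 alternatives. With 2 libraries in each condition, single libraries were not examined for outlying values.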

How the results depend on the processing

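Of the 8 genes, Rarb, Nrip1, Rxra, Rxrg and Rarg kept their direction and their call in RA against Veh under all 19 alternatives. Requiring a change of at least 2-fold left 3 genes in RA against Veh, 0 in NR against Veh, 3 in NRRA against Veh, 1 in NRRA against RA, 2 in NRRA against NR, 2 in NR against RA and 1 in the interaction. The interaction count fell from 2 to 1 with DESeq2, RLE, upper-quartile or total-count scaling, the stricter filter and the GC and length trend with or without the replicate block, and ran from 1 to 3 over the omitted libraries, with 3 without Veh replicate 2, where Ncor1 was also called (-0.15, adjusted p = 0.0342). NRRA against RA ran from 3 to 6 genes over the omitted libraries, with 3 without RA replicate 2 or NRRA replicate 2. The cause was not tested.

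Same-numbered deviations from the condition means correlated weakly between conditions, from -0.0918 to 0.14, so no strong shared replicate effect was seen. These correlations cannot show whether same-numbered libraries came from the same culture, which is not given in the sources used here. With the replicate block, 55 of 56 gene results kept their call, and Rxrb in NRRA against Veh was lost (0.15, adjusted p = 0.0506).

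Values that changed sign had not passed the test, except those of Lcor, Tbl1x and Nsd1. With the GC and length trend, and then with the replicate block added, Ncor1 gave -0.0309 and -0.0311 in NR against Veh, -0.0228 and -0.0221 in NRRA against RA and 0.0081 and 0.009 in the interaction. The interaction gave -0.0293 and -0.0274 for Rara, -0.0462 and -0.0471 for Rarg and -0.1079 and -0.1047 for Rxrb. Lcor gave -0.0359 and -0.0332 in RA against Veh, and in NRRA against Veh Tbl1x gave -0.0267 and -0.0265 and Nsd1 -0.0433 and -0.0432. For Rxrb the interaction was -0.0306 with the stricter filter, -0.0047 with total counts and -9e-04 with upper-quartile scaling, and NR against RA was 0.0029 without a filter. Over the omitted libraries the interaction ran from -0.0026 to 0.1225 for Rara, from -0.2895 to 0.0444 for Rarb, from -0.0215 to 0.1186 for Rarg, from -0.1171 to 0.0697 for Rxrb and from -0.1508 to 8e-04 for Ncor1. In the same way Rarg in NRRA against Veh ran from -0.0045 to 0.0853, and Rxrb from -0.0156 to 0.1708 in NR against Veh and from -0.0761 to 0.0284 in NR against RA.

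Scaling by total counts moved the median of all genes by 0.10 in RA against Veh and 0.11 in NRRA against Veh. It changed the split of all calls from 4048 higher and 4794 lower to 5541 and 3063 in RA against Veh, and from 6165 and 5885 to 7664 and 4493 in NRRA against Veh. In NRRA against NR the split went from 4351 and 4539 to 5879 and 3354, and in NR against RA from 5026 and 4864 to 4183 and 6083. The interaction called 1329 higher and 1350 lower, against 1025 and 1694 with the stricter filter, 759 and 828 with DESeq2, 804 and 866 without RA replicate 2 and 872 and 870 without NRRA replicate 2. Low counts limit Rarb without RA and Rxrg in NRRA.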
